A study of Mus musculus with 2 samples.

Results

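Long noncoding RNA genes are transcribed by RNA polymerase II without an open reading frame of known function, and many start far from any protein-coding gene. The regions described here are DNase-hypersensitive peaks at such starts alone. A peak was taken from the longer of the 2 peak lists deposited for each library if it lay on an autosome, within 500 bp of an annotated transcript start of a lincRNA or antisense gene, and over 1 kb from every transcript start of a protein-coding gene. The peaks were thus chosen by the measured peak calls and by their distance from annotated starts. This left 1732 of 112664 autosomal peaks (1.54%) in replicate 1 and 1981 of 163048 (1.21%) in replicate 2, called member peaks here. Of the 1732, 1261 were overlapped by at least 1 bp by a replicate 2 peak and form the core set. They belong to 1088 genes, 177 of which hold more than 1 core member.

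The libraries are replicates 1 and 2 of a single group, hippocampus of B6CASTF1/J females aged 14 days, with the tissue type given as layer of hippocampus. Each label names 3 females, and both carry the same donor identifier with separate biosamples. Whether animals were pooled is not stated, so part of the spread between the libraries may be technical. No treatment, comparison of conditions or test is involved, as both belong to 1 group. Each value is given for both libraries, replicate 1 first, with Wilson 95% intervals for shares, which cover counting error only. Whether a weak peak reflects an opening in few cells or a weak opening in many cannot be told apart in bulk tissue. The deposited signal of a peak has no stated scale and the depth in reads is unknown, so signal was read within a library or as a comparison of classes. At protein-coding starts, used to check the tissue, peaks lay within 500 bp for 11 of 11 autosomal hippocampal neuron markers in both libraries, for 8 of 8 astrocyte markers, for 7 and 6 of 8 oligodendrocyte markers, and for 6 and 6 of 7 microglia markers. Mog and Sox10 among the oligodendrocyte markers, and P2ry12 and Aif1 among the microglia markers, lacked one in at least 1 library. For markers of other organs the counts were 5 and 2 of 12, with Ttn and Dazl in both. The share of all protein-coding genes with such a peak was not counted, so these counts alone do not identify the tissue.

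Long noncoding RNAs act in several ways. Some, such as Malat1 and Neat1, stay in the nucleus and associate with its bodies, others such as Kcnq1ot1 and Airn silence neighbouring imprinted genes on the chromosome from which they are made, and others again are mainly the precursors from which microRNAs or small nucleolar RNAs are cut. DNase I cuts where nucleosomes have been displaced, as at promoters and enhancers, and a footprint is a short stretch inside such a site that is cut less than its surroundings, as happens where a protein covers the DNA.

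The 7 sequences below show the kinds of start that recur in the results. Gm15408 and Tmem250-ps are among the strongest core members. Malat1 is the strongest of the widely studied nuclear RNAs, Meg3 and Kcnq1ot1 are imprinted, and C130071C03Rik and Mir9-3hg carry microRNA genes. Each is the 200 bp around a peak's midpoint, read from the GRCm38.p6 (mm10) genome on its plus strand, 5′ to 3′. Capitals mark matches, on either strand, to the transcription factor and TATA consensus sequences searched. The splice site and polyadenylation letters that were also searched are not marked. The windows are chr5:149006791-149006990 for Gm15408, chr2:26140441-26140640 for Tmem250-ps, chr19:5802591-5802790 for Malat1, chr12:109540851-109541050 for Meg3, chr7:143296461-143296660 for Kcnq1ot1, chr13:83721081-83721280 for C130071C03Rik and chr7:79499861-79500060 for Mir9-3hg.
Gm15408: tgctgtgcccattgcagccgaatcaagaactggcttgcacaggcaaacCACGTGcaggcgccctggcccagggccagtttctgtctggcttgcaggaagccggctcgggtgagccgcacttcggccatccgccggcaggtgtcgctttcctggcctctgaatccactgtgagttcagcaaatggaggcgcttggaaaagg
Tmem250-ps: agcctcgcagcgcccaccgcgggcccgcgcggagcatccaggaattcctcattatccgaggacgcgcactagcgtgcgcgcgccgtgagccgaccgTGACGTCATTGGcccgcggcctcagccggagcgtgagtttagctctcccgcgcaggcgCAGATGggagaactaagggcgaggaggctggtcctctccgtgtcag
Malat1: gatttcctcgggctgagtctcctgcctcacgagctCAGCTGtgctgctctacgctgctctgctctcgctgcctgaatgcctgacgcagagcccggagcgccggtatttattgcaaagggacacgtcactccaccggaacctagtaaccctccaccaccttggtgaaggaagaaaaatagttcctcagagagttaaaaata
Meg3: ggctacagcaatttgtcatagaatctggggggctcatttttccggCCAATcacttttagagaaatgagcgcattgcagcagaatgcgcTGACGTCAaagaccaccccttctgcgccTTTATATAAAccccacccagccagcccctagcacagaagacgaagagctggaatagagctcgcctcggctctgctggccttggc
Kcnq1ot1: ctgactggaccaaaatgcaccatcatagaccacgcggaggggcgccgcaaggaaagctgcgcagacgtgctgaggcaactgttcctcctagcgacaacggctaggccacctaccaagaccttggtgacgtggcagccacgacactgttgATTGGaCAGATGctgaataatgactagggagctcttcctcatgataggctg
C130071C03Rik: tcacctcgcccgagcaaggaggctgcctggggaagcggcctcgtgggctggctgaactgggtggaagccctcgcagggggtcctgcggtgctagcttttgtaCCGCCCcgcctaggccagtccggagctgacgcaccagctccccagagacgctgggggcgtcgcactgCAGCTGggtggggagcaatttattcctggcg
Mir9-3hg: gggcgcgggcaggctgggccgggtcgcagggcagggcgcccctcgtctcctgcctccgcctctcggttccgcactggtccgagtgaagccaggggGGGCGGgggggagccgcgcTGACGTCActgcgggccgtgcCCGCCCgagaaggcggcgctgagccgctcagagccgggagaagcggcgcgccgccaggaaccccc

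The cAMP response element TGACGTCA, the site of CREB-family factors, is written out in capitals in Tmem250-ps, Meg3 and Mir9-3hg. In Tmem250-ps its last base is also the first of ATTGG, the reverse complement of the NF-Y box CCAAT. The E-box CACGTG stands in Gm15408, and the GC box GGGCGG or its reverse complement CCGCCC in C130071C03Rik and Mir9-3hg. Meg3 also holds TATAAA on both strands, the letters of the TATA box. A match is a description of the letters and does not show that a factor is bound.

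As a class, the member peaks stood between peaks at protein-coding starts and distal peaks. Protein-coding start peaks lay within 500 bp of such a start, and distal peaks over 1 kb from every transcript start. The median signal of member peaks was 0.942 and 0.583 in the respective libraries. It was 2.24 and 0.946 at protein-coding starts and 0.684 and 0.444 at distal peaks. Ranked among all autosomal peaks of its library, the median member peak stood at percentile 55.3 and 59.0, which is 57.2 ± 2.66 (SD, n = 2). Protein-coding start peaks stood at 80.1 and 77.1, and distal peaks at 41.2 and 44.9. These ranks use the readout that chose the peaks and are a description.

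The share of member peaks overlapped by a peak of the other library was 72.8% (70.7 to 74.8) in replicate 1 and 65.1% (63.0 to 67.2) in replicate 2. Among all autosomal peaks the share was 71.2% and 49.7%, so in replicate 1 the member peaks lay close to the background. Protein-coding start peaks gave 80.2% and 79.4%, and distal peaks 69.2% and 43.0%. With equal numbers of peaks taken from both libraries, the order of the libraries turned, to 64.8% in replicate 1 and 76.6% in replicate 2. Footprints were found in 83.0% (81.1 to 84.7) and 81.1% (79.3 to 82.7) of member peaks, against 78.3% and 79.1% of all autosomal peaks. These are shares near the background. At protein-coding starts the footprinted shares were 86.4% and 81.0%, and at distal peaks 76.1% and 79.1%.

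**Figure D1:**
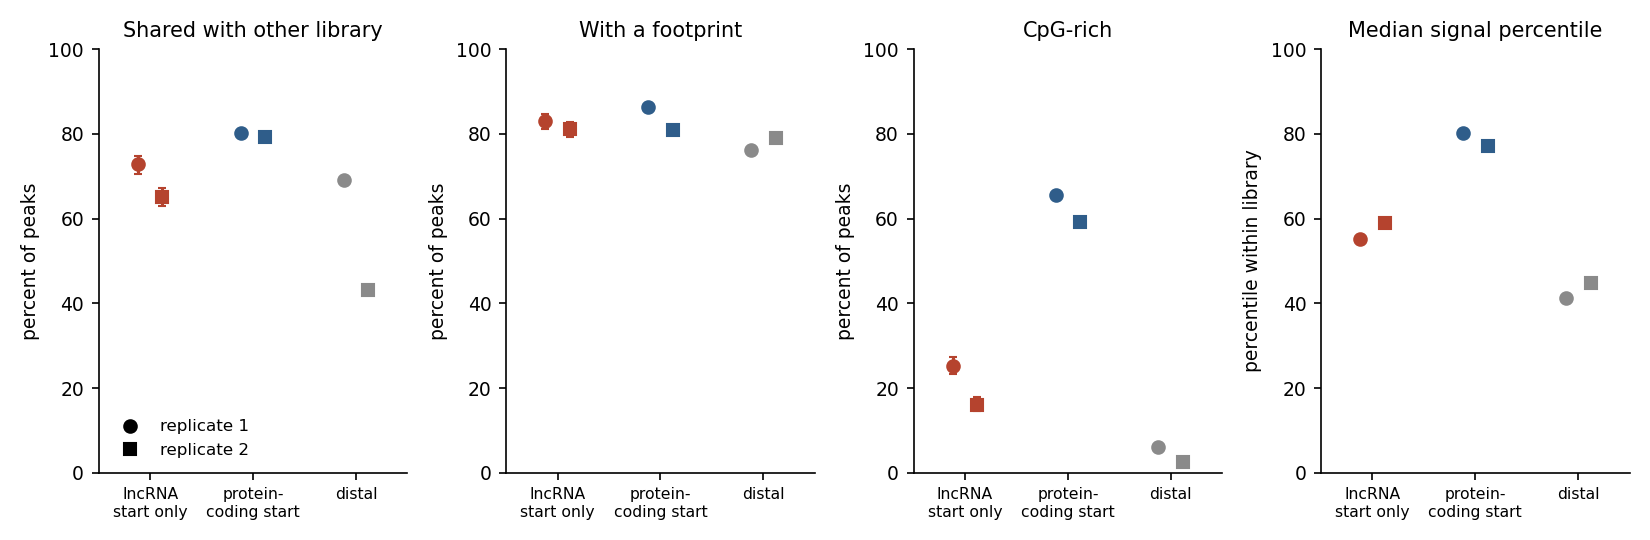
The 4 panels give measures of peaks at long noncoding RNA starts only, at protein-coding starts and at distal sites. Each circle (replicate 1) or square (replicate 2) is the value of 1 library, as a percent of peaks or, at the right, as the percentile within the library. Bars are Wilson 95% intervals. The CpG-rich share separates the classes most widely, with member peaks at 25.2% and 16.1%.

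Sharing rose with signal in every class. Among member peaks in the lowest decile of signal of their library, 23.6% and 13.9% were shared, and in the highest decile 99.3% and 99.2%. At matched signal the order of the classes differed between the libraries. In decile 6 of replicate 1, 74.5% of member peaks, 59.9% of protein-coding start peaks and 82.8% of distal peaks were shared. In decile 6 of replicate 2 the shares were 63.1%, 67.1% and 46.7%. For footprints, protein-coding start peaks were lowest in this decile in both libraries, at 74.6% and 65.9%. Member peaks carried one in 93.8% and 82.1%, and distal peaks in 93.6% and 91.1%.

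**Figure D2:**
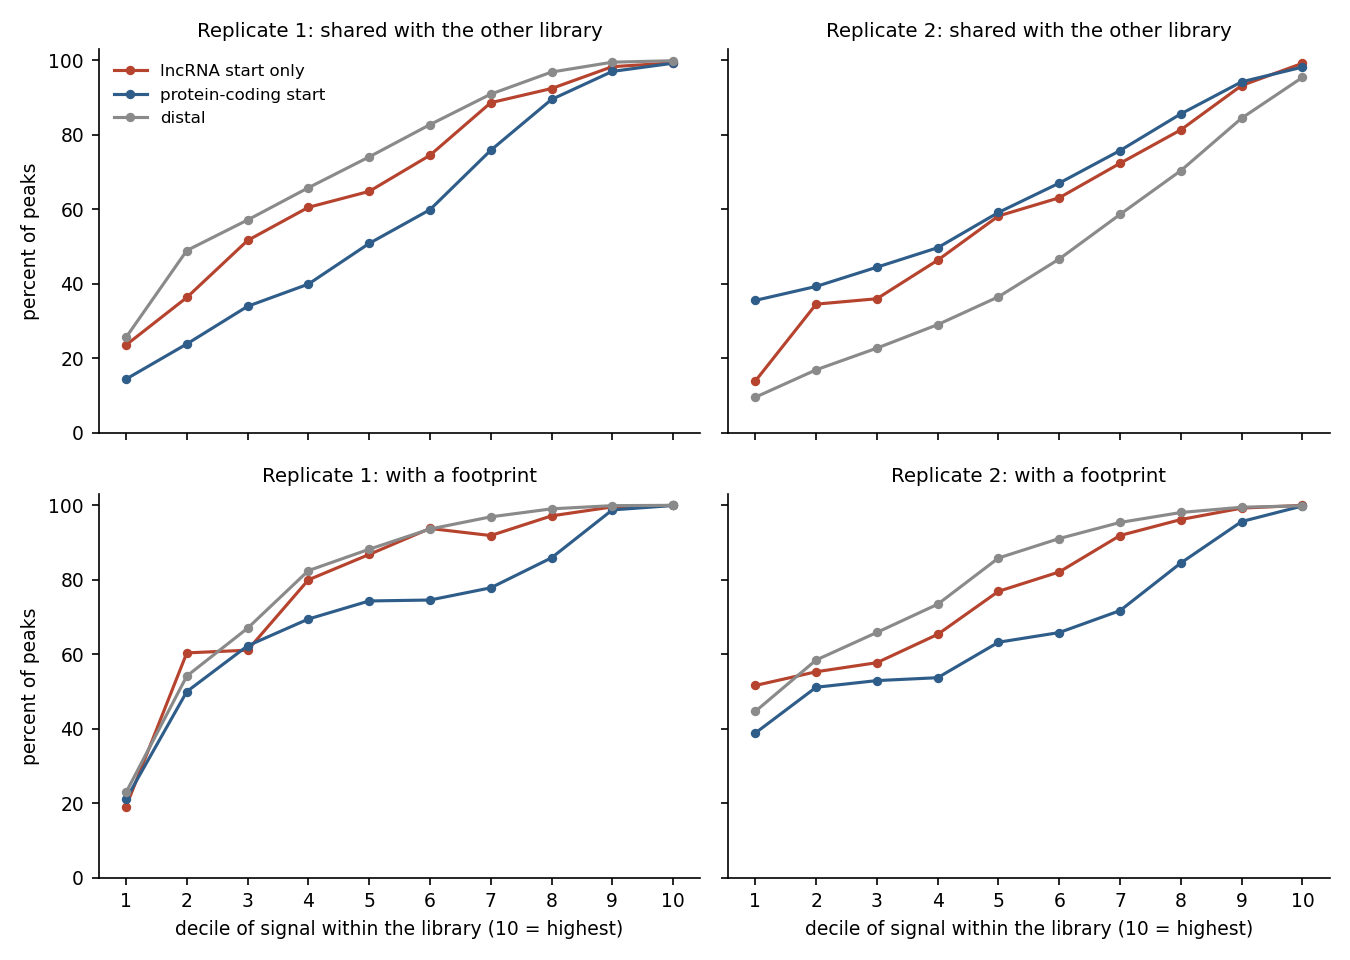
Percent of peaks shared with the other library (top) and percent with a footprint (bottom) by decile of signal within the library, for 3 classes of peaks. The libraries stand side by side. Member peaks lie between the other classes in the middle deciles for sharing, and in deciles 4 to 8 they carry a footprint more often than protein-coding start peaks.

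Member peaks found in a single library were weak. The 471 of replicate 1 had a median signal of 0.517 and the 691 of replicate 2 a median of 0.352, which are the percentiles 28.2 and 31.4. CpG-rich sequence made up 109 of the 471 in replicate 1 but 18 of the 691 in replicate 2. Close to 1 in 10 of these peaks had a peak of the other library within 100 bp, 48 in replicate 1 and 64 in replicate 2. The strongest in replicate 1 lay at Gm6410 (signal 5.49), 241 bp from a replicate 2 peak of 7.33. Next came Gm46404 with 4.50, 61 bp from a peak of 4.56, and Mir9-3hg with 2.59, 4421 bp from the nearest peak. In replicate 2 the strongest were at 4930597A21Rik with 2.38, at Mir124a-1hg with 1.87, and at A230108P19Rik with 1.72. The nearest replicate 1 peak was 24641 bp away for the first and 15841 bp for the third, while the peak at Mir124a-1hg ended 21 bp from one.

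CpG content divided the core set. The ratio of observed to expected CpG dinucleotides was measured in the reference sequence over the 200 bp around each midpoint, and a window was called CpG-rich at a ratio of at least 0.6 with at least 50% G and C. The median ratio of core members was 0.416. Over all member peaks it was 0.404 and 0.341, between 0.747 and 0.705 at protein-coding starts and 0.256 and 0.216 at distal peaks. CpG-rich windows made up 25.2% (23.2 to 27.3) and 16.1% (14.6 to 17.8) of member peaks, 65.7% and 59.2% at protein-coding starts, and 6.05% and 2.60% of distal peaks.

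The 328 CpG-rich core members had a median signal of 2.90 in replicate 1 and 1.35 in the overlapping replicate 2 peak. The other 933 had 1.06 and 0.773. Both libraries ranked the peak at or above percentile 90 for 94 of the 328 (28.7%) and for 44 of the 933 (4.72%). CpG-rich core members carried on average 4.48 and 3.52 footprints and the others 2.72 and 2.68. The libraries differed in how strongly they registered CpG-rich sites. The median ratio of replicate 1 to replicate 2 signal was 2.36 for CpG-rich and 1.49 for other core members. It was 2.60 and 1.77 for shared protein-coding start peaks and 2.20 and 1.34 for shared distal peaks, so the gap between CpG classes was found in each class of peak. What set it was not tested. The core members furthest to the other side, picked out after their values were seen, were at Gm2109 with 0.365 and 2.11 and at Gm28151 with 0.471 and 2.41, neither of them CpG-rich.

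**Figure D3:**
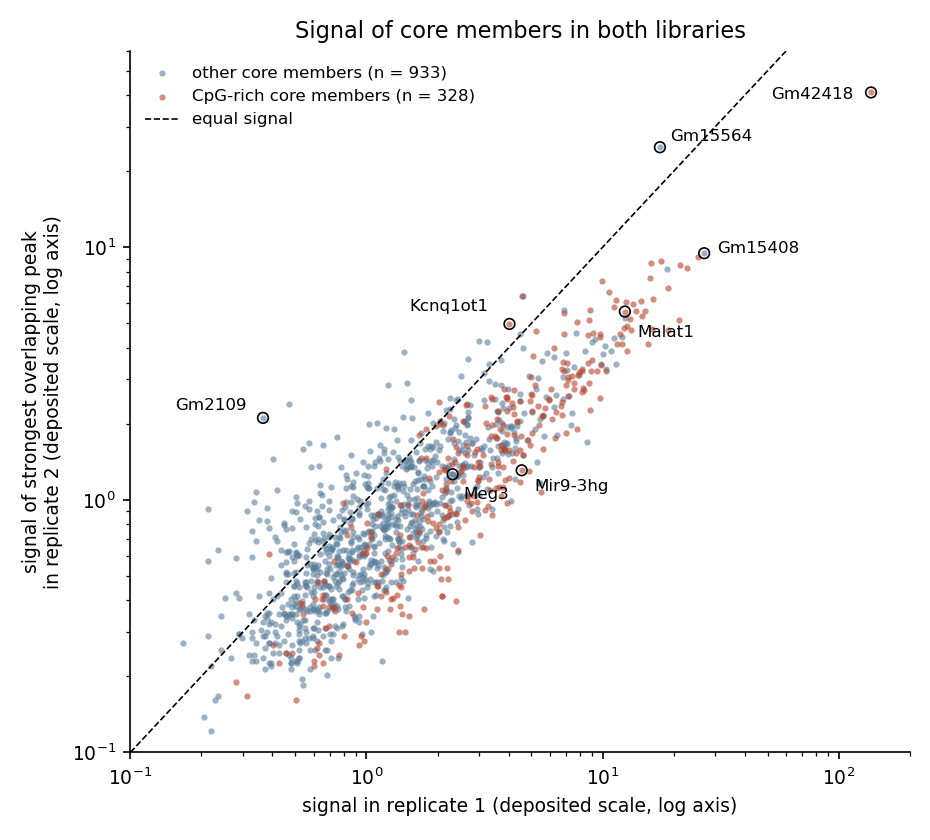
Signal of the 1261 core members in replicate 1 (x axis) against the strongest overlapping peak of replicate 2 (y axis), both on the deposited scale and on log axes. Red points are CpG-rich (n = 328) and blue points are the others (n = 933), and the dashed line marks equal signal. CpG-rich points lie further below the line, and Gm42418, at 137 and 41.0, stands apart at the upper right.

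The strongest core member lay at Gm42418, chr17:39846781-39846900, where replicate 1 gave a signal of 137 and replicate 2 gave 41.0. It is 58 bp from the annotated start and overlaps an annotated ribosomal RNA gene. Of its 32-base words, 68.6% occur elsewhere in the genome, so reads placed there may come from more than 1 locus, and its values are uncertain. Gm15564, antisense to Kpna1, was the only one of the 12 strongest with more signal in replicate 2, 24.9, than in replicate 1, 17.5. Of its words 48.5% occur elsewhere, as do 43.8% of those at 9430037G07Rik, which had 16.3 and 6.25. The values of both, and the reversed order at Gm15564, are therefore uncertain in the same way. Words were sought only in the assembled chromosomes and the mitochondrial genome, so copies in unassembled sequence were not counted. The remaining 9 of the 12 held no word found elsewhere. Over the core set, 1168 members (92.6%) held none, 19 (1.51%) consisted mostly of such words, and 0 shared a word with the mitochondrial genome.

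Those 9 were all located outside protein-coding genes except D730045B01Rik, which lies in Gm42906 on the same strand. Gm15408, chr5:149006801-149006980, had 26.9 and 9.47 and spans its annotated start. Tmem250-ps, chr2:26140381-26140700, annotated as a lincRNA, had 25.4 and 9.18 and 6 and 5 footprints. D730045B01Rik had 21.3 and 8.51 with 9 footprints in each library, the most among the 12. At 6720427I07Rik the signal was 22.8 and 8.25, at 1700096K18Rik 18.7 and 8.17, and at Gm12762 17.7 and 8.79. Gm20732, 104485 bp from the nearest protein-coding start, that of Zfat, had 15.8 and 7.53. Among the 12, 9 were CpG-rich. All of the 9 had more signal in replicate 1, as most core members did, the median ratio over the core set being 1.66.

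Genes known from work on brain RNAs were next. Of 20 eligible genes on a list of brain long noncoding RNAs, 13 in replicate 1 and 11 in replicate 2 had a member peak. A gene was eligible if it had a start over 1 kb from every protein-coding start, and of all 6834 such genes 1331 (19.5%) and 1517 (22.2%) had one, 20.8% ± 1.92 (SD, n = 2). The lists were chosen with earlier results of these data known, so the counts are a description. Listed genes were not matched to all eligible genes in number of starts or CpG content, and the share with a peak varied with both, as given below. 1700020I14Rik had the highest signal of the brain list, 11.4 and 6.17. Zfhx2os, which is annotated beside the homeobox gene Zfhx2, had 5.03 and 2.23. Miat, a neuronally expressed nuclear RNA, had 3.31 and 1.21 at its stronger peak and 0.973 and 0.508 at its weaker one. Pantr1 lies beside Pou3f3, a POU-domain factor of the developing cortex, and had 2.36 and 1.41 at the strongest of its 3 and 3 member peaks. Rmst, which is known to bind SOX2, was weaker, with 1.26 and 0.710. Dlx1as and Dlx6os1, which belong to the forebrain interneuron loci of the Dlx genes, and Otx2os1 had no member peak in either library.

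Among 8 eligible imprinted genes, 5 had a member peak in each library, beside 19.5% and 22.2% of all eligible genes. Nespas, transcribed across the Gnas locus in antisense, had 5.92 and 2.49. Meg3 had 2.32 and 1.26 at its start window shown above and 1.09 and 0.421 at a second core member over a later start. Mirg, the microRNA-containing transcript of the Meg3 domain, had 4.90 and 3.10. Its core member, chr12:109748421-109748640, lies by an annotated start inside the gene, which spans 109729764-109749460, and not at the gene's outer end. Airn, antisense to the growth factor receptor Igf2r, had 1.38 and 0.727. Kcnq1ot1, antisense within Kcnq1, went the other way from those 4, with 4.03 in replicate 1 and 4.97 in replicate 2, a ratio of 0.811 although its window is CpG-rich. H19 had no member peak in either library. Both libraries come from a hybrid, but alleles were not separated in the files used here.

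Genes carrying microRNAs were often open. Of 75 eligible genes that hold an annotated microRNA gene on their own strand, 35 in replicate 1 (46.7%, 35.8 to 57.8) and 37 in replicate 2 (49.3%, 38.3 to 60.4) had a member peak. Of the other 6759 it was 19.2% (18.3 to 20.1) and 21.9% (20.9 to 22.9). The number of annotated starts moves with this, since 46.7% of the carriers and 21.4% of the others have more than 1. Among genes with a single start the shares were 32.5% (20.1 to 48.0) and 35.0% (22.1 to 50.5) of 40 carriers, against 16.1% (15.1 to 17.1) and 18.6% (17.6 to 19.7) of the others. Among genes with more starts they were 62.9% and 65.7% of 35 carriers, against 30.6% and 33.8%. This split was chosen after other values had been seen. Of 36 eligible genes that hold a snoRNA gene, 9 and 12 had a member peak. The intervals of these shares, 13.8% to 41.1% and 20.2% to 49.7%, include the shares of the rest, 19.4% and 22.1%.

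All 3 mouse mir-9 genes lie in eligible genes with member peaks in both libraries. miR-9 is a microRNA of neural progenitors and neurons, and its 3 loci give the same mature strands, shown here from RefSeq (GRCm38.p6) with the seed, bases 2 to 8, in capitals. Only the host starts were measured here, not the microRNA itself.
miR-9-5p: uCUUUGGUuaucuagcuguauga
miR-9-3p: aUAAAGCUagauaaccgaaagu

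Gm3764, the host of Mir9-1, had 7 and 11 member peaks, more than any other gene, over its 11 annotated starts. The strongest had 5.67 in replicate 1 and, at another of its peaks, 3.44 in replicate 2, and the 6 of them in the core set ran from 1.53 to 5.67 in replicate 1. C130071C03Rik, the host of Mir9-2, had 4 and 7, the strongest with 6.71 and 2.45. Its 4 core members had 6.71, 1.53, 2.47 and 1.59 in replicate 1, in order along the gene. Mir9-3hg, the host of Mir9-3, had 4 and 2 member peaks. Its core member had 4.54 and 1.31, and 10 and 12 footprints. Hosts of mir-124, a microRNA abundant in neurons, had several as well. Mir124a-1hg had 6 and 5 member peaks, the strongest at 3.00 and 1.87, and Mir124-2hg had 4 and 4, the strongest at 1.22 and 0.704. In other lineages, Mir142hg, whose microRNA is typical of blood cells, had 1.23 and 0.629, and Mir155hg, induced in activated immune cells, had 0.577 and 0.213.

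Hosts of snoRNAs and broadly expressed genes gave some of the higher signals. Malat1 had 12.4 and 5.57 at a peak over its start, chr19:5802601-5802780, with 5 and 6 footprints. Neat1, which builds paraspeckles, had 8.77 and 2.91. Its core member, chr19:5845801-5846040, does not span the Neat1 start and has a start of Frmd8os as its nearest. Snhg6 had 7.16 and 2.98, and Snhg12 had 6.21 and 4.00 at its start with further core members of 0.866 and 0.798 in replicate 1. Lncpint had 5.30 and 2.36 at the strongest of its 5 and 5 member peaks. Pvt1, which lies beside Myc, had 3.18 and 0.911. Of 18 eligible broadly expressed genes 11 and 12 had a member peak, and of 5 eligible genes on the list of snoRNA hosts 5 and 5, beside 19.5% and 22.2% of all eligible genes. The snoRNA list is short and hand-made. Of all 36 eligible genes that hold a snoRNA gene, 9 and 12 had a member peak, as given above. Their median signal was 6.21 and 1.10, against 1.11 and 0.686 over all eligible genes with a peak. For the few of them with a single start and a peak, 2 and 3 genes, it was 0.862 and 0.225.

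Lists of Hox cluster genes and of genes known from other tissues were counted in the same way, beside the 19.5% and 22.2% of all eligible genes. Of 9 eligible Hox cluster genes, Hoxd3os1 with 3.21 and 1.27 and Gm53 with 1.27 and 0.404 had a member peak in both libraries. Hotair and Hottip had none. That count of 2 and 2 is near the background. Of 21 eligible genes known from other tissues, 7 and 8 had one, 5 of them in both libraries, and the median of their strongest signals was 0.577 and 0.392. Of those 5, Neat1, Bvht, Mir142hg and Mir155hg also stand on other lists, which leaves Ptgs2os2. It had the lowest replicate 1 signal of the listed genes, at 0.167, with 0.271 in replicate 2.

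**Figure D4:**
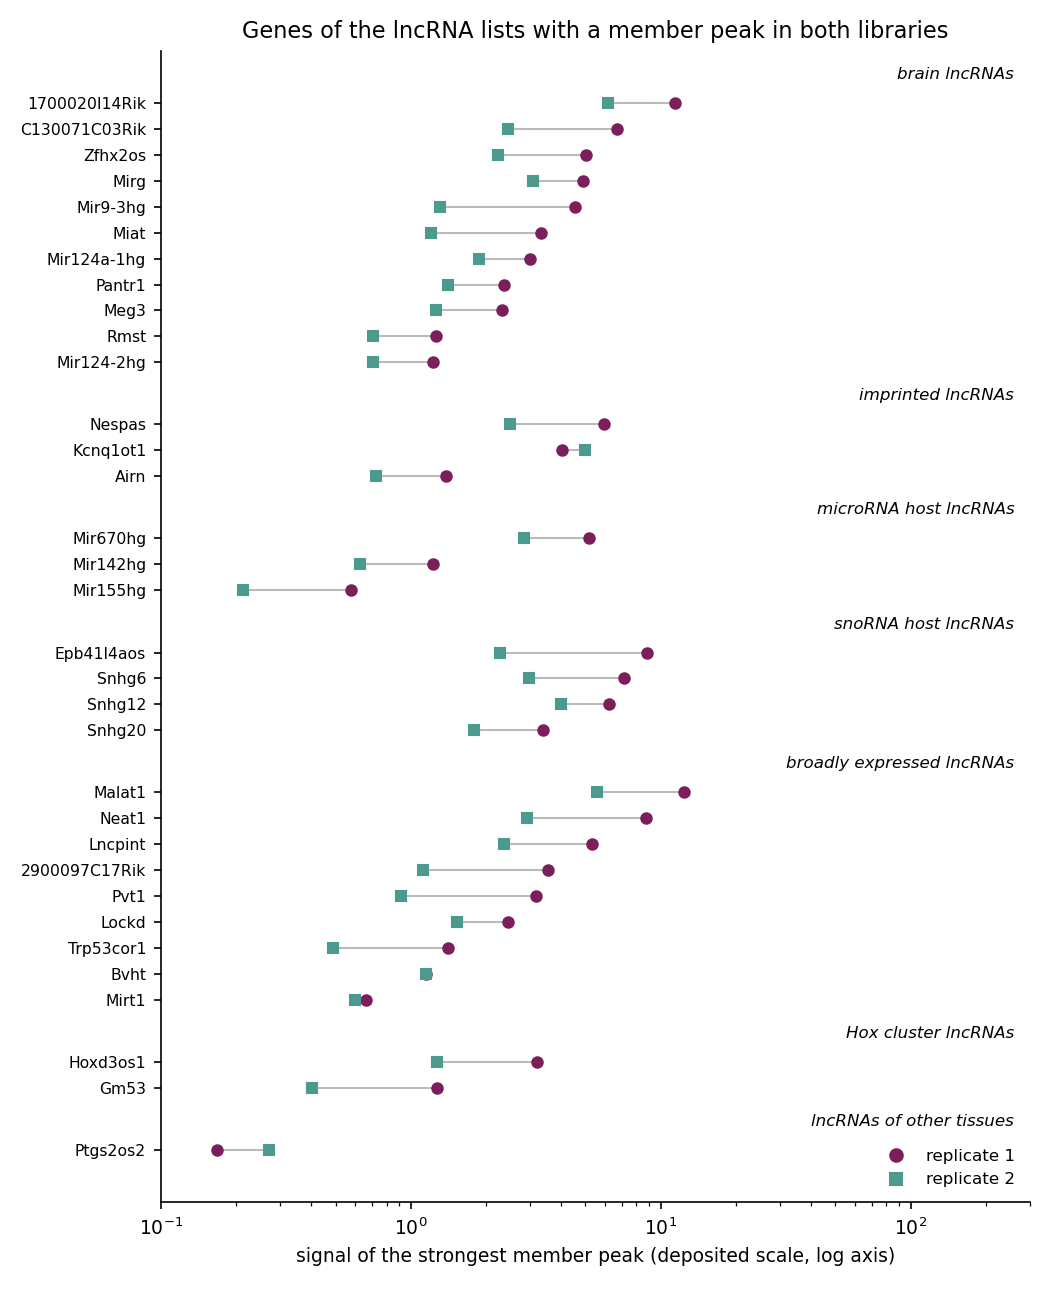
Signal of the strongest member peak in replicate 1 (circles) and replicate 2 (squares) for genes of 7 lists that had a member peak in both libraries, on a log axis. A gene on several lists is drawn once, under the first. Malat1 (12.4 and 5.57) and 1700020I14Rik (11.4 and 6.17) are the highest, and Kcnq1ot1 and Ptgs2os2 are the ones with clearly more signal in replicate 2.

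The share of genes with a member peak varied with their start sequence. Of 492 eligible genes with a CpG-rich start, 58.5% (54.1 to 62.8) and 53.7% (49.2 to 58.0) had one, and of the 6342 without, 16.4% (15.6 to 17.4) and 19.8% (18.8 to 20.8). Of 842 genes whose starts lie mostly in repeats, 3.68% (2.61 to 5.18) and 4.87% (3.61 to 6.54) had one. Of the other 5992, 21.7% and 24.6% did. The share also went with the number of annotated starts, each of which gives a further chance of a peak. It was 16.2% and 18.8% of 5354 genes with 1 start and 48.0% and 49.6% of 254 genes with 4 or more. lincRNA genes gave 19.8% and 22.8%, and antisense genes 18.7% and 20.7%, and these intervals overlap. Besides Gm3764, the genes with the most member peaks included A330102I10Rik with 6 and 5, the strongest at 1.78 and 0.946. Rab10os, with 5 and 4, had a much stronger one, at 13.04 and 6.397. Genes with 3 or more exons gave 20.3% and 23.1%, and those with a single exon 19.2% and 18.9%.

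Core members gathered at the annotated starts within the 500 bp allowed. In 542 of 1261 (43.0%) the peak spanned a start, and in 764 (60.6%) it spanned one or ended within 100 bp of one. Midpoints lay upstream in 58.2%, with a median offset of -30 bp. The 100 bp just upstream held 307 midpoints (24.3%) and the 100 bp just downstream 186 (14.8%). Of CpG-rich core members 52.7% spanned a start, and of the others 39.5%. Protein-coding genes did not contain 1001 of the core members (79.4%). A further 248 were inside one on the other strand and 12 inside one on the same strand. The median distance to the nearest protein-coding start was 33541 bp over the core set, 51781 bp for the 937 at lincRNA genes and 9292.5 bp for the 324 at antisense genes. Members closer to a protein-coding start were more often CpG-rich, from 41.2% of the 199 within 5 kb to 13.4% of the 314 beyond 100 kb. Their median replicate 1 signal was 1.91 in the nearer set and 0.923 in the further one.

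The false discovery rate (FDR) of the cut rate, deposited for each base that reached an FDR under 0.05, gave the width of these openings. In the 100 bp upstream of CpG-rich core starts, 88.3% and 83.4% of bases were listed. At the other core starts it was 60.2% and 62.5%. Since the core starts were chosen for a peak within 500 bp, these central values are fixed in part by the choice. Protein-coding starts, which were not so chosen, had 49.4% and 46.8%. Starts of eligible genes without a member peak in either library, chosen for that lack, had 0.271% and 0.224%. Beyond the 500 bp of the rule, at 1900 to 2000 bp upstream, the listed share was 10.4% and 9.24% for CpG-rich core starts and 4.998% and 5.998% for the others. It was 2.13% and 2.79% for starts without a member peak and 4.40% and 4.50% for protein-coding starts.

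**Figure D5:**
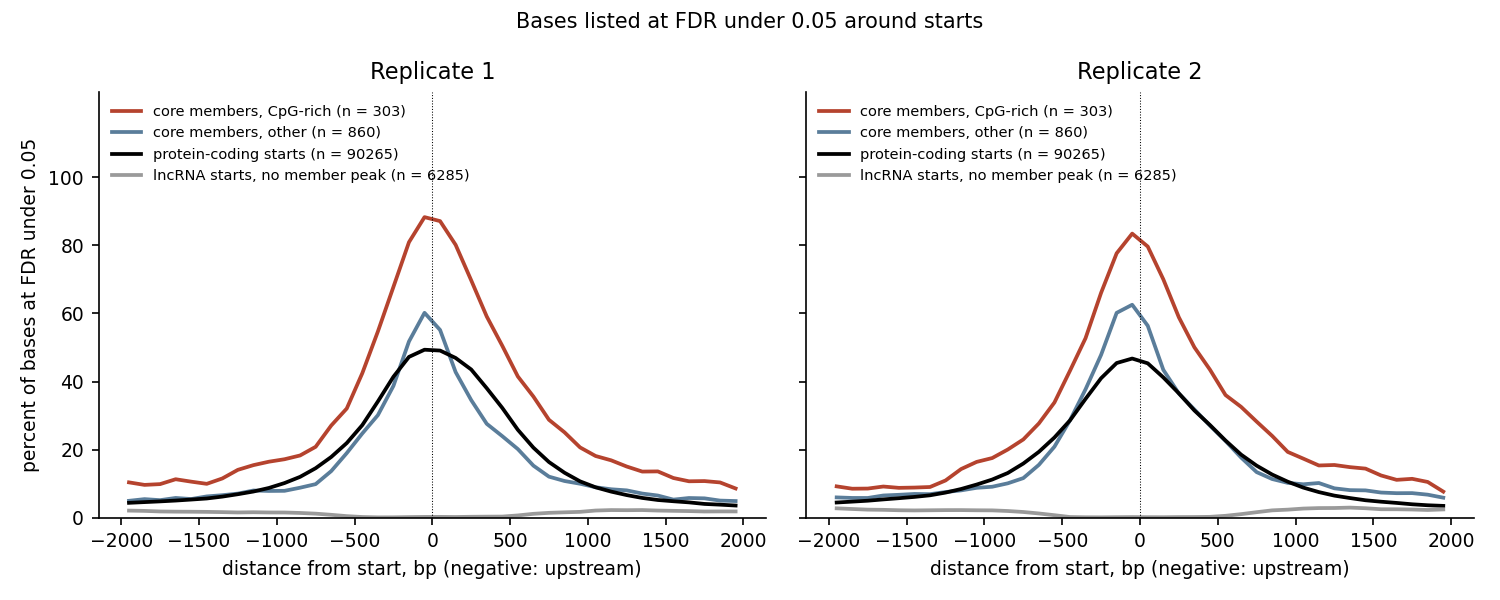
Percent of bases listed at an FDR under 0.05 in 100-bp steps to 2000 bp on either side of starts, oriented by strand, in replicate 1 (left) and replicate 2 (right). Lines are CpG-rich core starts (n = 303), other core starts (n = 860), all starts of protein-coding genes (n = 90265) and starts of eligible genes without a member peak (n = 6285). The CpG-rich line is the highest at every distance, and the line without a member peak the lowest.

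Of the 22 consensus sequences searched, only some are described here. For the GC box and the E-box CAGATG, member peaks stood between protein-coding starts and distal peaks. The E-box CAGCTG did not keep this order in replicate 2. It was in 21.4% and 18.8% of member peaks, 13.7% and 12.6% at protein-coding starts, and 22.8% and 18.4% at distal peaks. The GC box GGGCGG was found within the 200-bp window of 20.3% of member peaks in replicate 1 and 14.3% in replicate 2, against 48.6% and 44.0% at protein-coding starts, 8.96% and 4.96% at distal peaks, and 18.7% and 11.7% of all autosomal peaks. The GC box was in 47.9% of the 328 CpG-rich core members of replicate 1. It was in 45.2% of the 301 CpG-rich shared member peaks of replicate 2. The shares given for protein-coding starts cover all such peaks, CpG-rich or not, so they are not a matched comparison. The E-box CAGATG, bound by neurogenic basic helix-loop-helix factors, showed the reverse order. It occurred in 18.6% and 19.6% of member peaks, 9.17% and 10.6% at protein-coding starts, 25.7% and 30.2% at distal peaks, and 21.3% and 26.3% overall.

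A reduced consensus of the insulator protein CTCF (CC, 3 free bases, AG, 2 free bases, GGC) matched 13.3% and 11.2% of member peaks, 11.7% and 10.95% at protein-coding starts, 14.3% and 10.997% at distal peaks, and 13.7% and 11.03% of all autosomal peaks. A footprint of the same library overlapped the match in 67.4% and 70.1% of the matching member peaks, near the 67.9% and 70.7% of all autosomal peaks. It did so in 56.2% and 57.3% at protein-coding starts and in 71.5% and 74.0% at distal peaks. The cAMP response element TGACGTCA was rare, in 20 (1.15%) and 29 (1.46%) member peaks, and was footprinted in 16 and 24 of them. Its matches were footprinted in 90.1% and 87.9% at protein-coding starts and in 54.8% and 49.6% at distal peaks. Among all autosomal peaks the footprinted share was 78.1% and 72.5%. The element was in 1.95% and 1.97% of protein-coding start peaks, 0.294% and 0.273% of distal peaks, and 0.683% and 0.563% overall. Each motif was searched on both strands, and matches of different motifs could overlap, as in Tmem250-ps.

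Footprints were only partly shared. Of 3952 footprints in replicate 1 core members, 46.0% overlapped a replicate 2 footprint. Of 3575 in the corresponding shared peaks of replicate 2, 51.8% overlapped one of replicate 1. Shared protein-coding start peaks gave 54.7% and 64.8%, and shared distal peaks 48.4% and 47.2%. The core members with the most footprints were at Gm6410 with 16 and 8, Mir9-3hg with 10 and 12, Gm49335 with 7 and 14, and Gm40513 with 15 and 5. A second core member at Gm49335 had 5 and is overlapped by the same replicate 2 peak. All of these are wide peaks, Gm40513 spanning 800 bp and Gm6410 660 bp.

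Some core members lay nearest to transcription factor genes of the nervous system. The nearest protein-coding start belonged to a gene of a list of 161 neural transcription factors for 74 core members (5.87%). The share was 3.497% and 3.02% of distal peaks and 3.21% and 2.78% of all autosomal peaks. Of eligible genes, 4.16% had such a neighbour, of those with a core member 5.17%, and of those without a peak in either library 3.68%. The strongest was 1700113A16Rik, near Mef2d, an activity-regulated factor of neurons, with core members of 15.99 and 8.67 and of 12.4 and 4.79. A830082K12Rik, 1864 bp from a start of the cortical patterning factor Nr2f1, had 11.5 and 4.15. C130071C03Rik and Gm26803 both had Mef2c as neighbour, at 6.71 and 2.45 and at 3.67 and 1.92. 2410080I02Rik, nearest to Klf9, had 5.54 and 2.16, and A730035I17Rik, inside Prdm8 on the other strand, had 5.57 and 1.59. Hes1, a target of Notch signalling, was nearest to 4632428C04Rik with 4.58 and 1.4998. Sox9, a glial factor, was nearest to 2610035D17Rik at 390337 bp, with 3.89 and 1.56. Gm3764, the host of Mir9-1, had Mef2d nearest to 1 of its core members, with 3.20 and 2.02.

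The members nearest the limits of the rule are given for both sides. Just inside 500 bp, Gm15564 stood at 500 bp and Gm26576 at 499 bp with 1.36 and 1.11. Just outside, at 501 bp, a peak by Gm11175 had 5.39 and 2.10 and one by 2410080I02Rik had 2.64 and 0.981. Just beyond the limit for protein-coding starts, Gm48159 lay 1007 bp from Rspo3 with 1.05 and 0.560 and Pantr1 1008 bp from Pou3f3. Left out at 999 bp was the peak over the start of Junos, near Jun, with 6.31 and 4.44, and at 998 bp that of Gm15736 with 1.18 and 0.479.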

How the data were processed

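Both libraries were processed separately. The listing that came with each library's files says the authors derived them from its own mm10 alignment. No source used here names an aligner, peak caller or footprint caller. The deposited peak lists give a signal per peak whose scale is not stated. The longer of 2 lists was used, 115699 and 167829 peaks. The deposited FDR files hold q-values under 0.05, and the deposited footprints carry a constant score, so they were not ranked.

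Peaks were joined to GENCODE M21 starts and the GRCm38.p6 sequence with Python 3.11.15, NumPy 2.4.6, pandas 2.3.3 and SciPy 1.17.1, in code checked on simulated intervals. Distances run from the peak edge. Peaks off the autosomes were left out, among them 37 X chromosome peaks in each library that met the distances. Reported genes were the 12 strongest core members by the smaller percentile, listed genes, members at each limit, the strongest single-library peaks, those with most footprints or peaks, and 10 neighbours of neural factors. Members and lists were chosen with earlier results of these data known. Alternatives varied the list, distances, annotation, overlap and peak number. One of the 12 strongest core members is not reported here.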

Additional observations from a re-analysis of the deposited data

How the results depend on the processing

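Of 54 values recomputed under an alternative, 45 moved by less than the spread between the libraries or, for the count of core members, stayed within 1.5 times. These values are levels or counts and show no direction. Those with 1 library left out are among the 45. With 2 libraries they always move by less than that spread, so their staying within it shows nothing. For the median CpG ratio of core members, the spread used was that of all member peaks, an SD of 0.0446. Over the shared member peaks of each library the SD was 0.00686. Against that smaller spread, several ratios counted among the 45 moved. Examples are 0.458 with the shorter list and 0.386 at 1000 bp from a start, in place of 0.416. The shorter peak list gave 814 core members in place of 1261, a footprint in 89.3% of member peaks in place of 82.0%, and a member peak at 14.2% of eligible genes in place of 20.8%. A limit of 250 bp from a start gave 83.9% with a footprint, a median signal percentile of 59.9 in place of 57.2, and 17.3% of eligible genes. A limit of 1000 bp gave 25.98% of eligible genes. Equal numbers of peaks from both libraries gave 86.3% with a footprint and 18.5% of eligible genes. By library it turned the order of the shared shares, from 72.8% and 65.1% to 64.8% in replicate 1 and 76.6% in replicate 2. Leaving out each library in turn gave shared shares of 65.1% to 72.8%, footprint shares of 81.1% to 83.0%, median percentiles of 55.3 to 59.0, and 19.5% to 22.2% of eligible genes. The cause of these shifts was not tested. No paired analysis was possible because the study has 1 group. The depth in reads is unknown, so a start without a peak in these lists cannot be called closed. A start without a member peak may also hold a called peak that the distance rule left out, as the Junos start does.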
